A study of Bos taurus with 11 samples.

Results

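The 9 genes described here, SRGN, CD53, PTPRC, CD69, SAMSN1, GPR171, CORO1A, LAPTM5 and TYROBP, are read as markers of white blood cells in the lining of the bovine uterus. They were chosen by name as genes active across leukocytes, with earlier results of these same arrays known, and where a gene had several probe sets that with the strongest average signal across the 11 arrays was used. All 9 were on the array, with 12 probe sets between them, among 9155 genes that had a probe set with a single symbol and 24016 probe sets tested. Because the differences between severe and mild cows were known when the list was drawn up, those differences are given as a description, and nothing is supported with them.

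Endometrium of 11 multiparous Holstein-Friesian cows, taken at slaughter 14 ± 0.4 days after calving, was measured as total RNA on Affymetrix bovine arrays, 1 per cow. In negative energy balance a cow spends more energy, mainly on milk, than it eats. The cows were on 2 regimes running from day 2 after calving, labelled by how deep that deficit was. Mild cows (n = 5) had free access to grass silage with 8 kg of concentrate per day and a single milking (1 per day). Severe cows (n = 6) had 25 kg of silage and 4 kg of concentrate per day and 3 milkings. All cows shared a mean parity of 4.7 and a previous yield of 6477 ± 354 kg (the labels do not name the kind of error). All were of 1 breed at 1 stage after calving, and no group was labelled as outside a deficit. Silage, concentrate and milkings differed together, and no energy balance per cow is given. Depth of deficit therefore cannot be told apart from feed or milking. Cows are called mild 1 to mild 5 and severe 1 to severe 6, numbers that serve only as names. The samples held endometrium by their markers: the epithelial gene CLDN10 averaged 10.42 and the uterine homeobox gene HOXA10 averaged 9.38 over all cows on the log2 signal scale. Smooth muscle genes were brighter still, with ACTA2 at 13.43 and TAGLN at 12.59, and the muscle content of the samples was not tested. The estrogen receptor gene ESR1 was dim in 10 of 11 cows, dim meaning a signal under 5.52, below which the dimmest 40% of probe sets lie.

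Leukocytes of every lineage arise from the same stem cells in bone marrow and keep a shared set of genes for signalling at the membrane, for movement through tissue and for storage and breakdown of proteins. After calving, neutrophils, macrophages and lymphocytes enter the endometrium while the tissue is cleared of bacteria and debris and rebuilt. PTPRC, which encodes CD45, is the classic surface label of nucleated blood cells, whereas TYROBP is used mainly by myeloid and natural killer cells, and CD69 and GPR171 are best known from lymphocytes. A bulk array measures all cells of the sample together, so more leukocytes and more RNA per leukocyte cannot be told apart in any value below.

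All 9 genes had a higher mean in severe cows, by 0.52 to 1.79 log2 units with a median of 1.39, where the median over all 9155 genes was -0.00378 and the 99th percentile 1.21. Limma adjusted over all probe sets called 0 of the 9 at 0.05 (percent called over all probe sets: 0.0), and their adjusted p ran from 0.269 to 0.456. At an unadjusted p under 0.05, 8 of 9 were higher, against 8.45% of all genes higher and 7.46% lower. In 1 of 9, SRGN, every severe cow lay above every mild cow, against 0.754% of all genes. These counts rest on the contrast that was known when the genes were picked, so nothing is read from them. Below, means are given ± SD over cows and differences (severe minus mild) ± SE from limma.

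**Figure D1:**
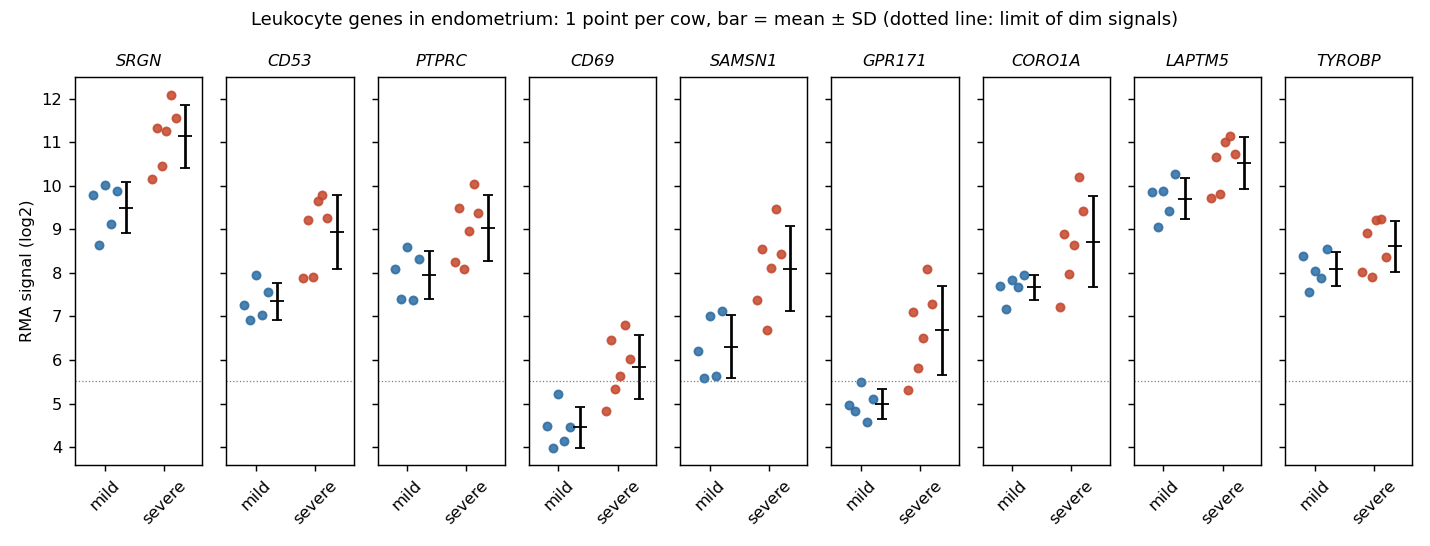
RMA signal (log2, vertical axis) of each of the 9 genes in 5 mild and 6 severe cows, 1 point per cow, with bars for mean ± SD and a dotted line at the dim limit of 5.52. The groups are separate in SRGN alone, and CD69 and GPR171 lie under the line in all 5 mild cows.

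SRGN encodes serglycin, the proteoglycan that packs proteases and other charged cargo into secretory granules of leukocytes, and it is also made by endothelium. Mild cows 1 to 5 read 9.80, 8.64, 10.03, 9.12 and 9.89 log2 units, and severe cows ran from 10.15 to 12.09 with a median of 11.29. No severe cow overlapped with a mild cow, and severe 1 came closest. Mean signals were 9.50 ± 0.59 (SD, n = 5) and 11.14 ± 0.72 (SD, n = 6), a log2 difference of 1.64 ± 0.36 (SE) or 3.12-fold, with a limma adjusted p of 0.269. The endothelial list (9 genes measured) differed by 0.05 between the groups in its mean score, with mild cows at -0.25 to 0.14 and severe cows at -0.22 to 0.24, and its part in the SRGN values was not tested. Of 14 measured genes for serglycin's cargo and for the synthesis of its sugar chains, 7 were higher and 7 lower, with a median difference of -0.01. At an unadjusted p under 0.05 there were 2 in each direction (all genes: 8.45% higher and 7.46% lower at that p). PRF1, the pore-forming protein stored in cytotoxic granules, averaged 5.59 ± 0.33 in mild and 6.58 ± 0.62 in severe cows. TPSB2, a mast cell tryptase that serglycin stores, averaged 6.35 ± 0.16 in mild and 5.95 ± 0.17 in severe cows, and severe 5, the cow with the highest SRGN, had the lowest TPSB2 signal. Of 6 other proteoglycans measured, 4 were higher and 2 lower, with 0 at an unadjusted p under 0.05. Decorin (DCN), of the connective tissue, differed by 0.16 ± 0.13 and biglycan (BGN) by 0.45 ± 0.20 log2 units, values of 0.06 and 0.29 without mild 2.

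Of the surface proteins, PTPRC is a receptor tyrosine phosphatase that switches Src-family kinases on by removing an inhibitory phosphate. In mild cows 1 to 5 its signal was 8.08, 7.40, 8.60, 7.38 and 8.31, and in severe cows 8.09 to 10.04 with a median of 9.18. Severe 1 and severe 3 lay inside the range of the mild cows and the other 4 above it. The means, 7.95 ± 0.55 and 9.04 ± 0.76, differed by 1.08 ± 0.36 log2 units, a 2.12-fold difference with a limma adjusted p of 0.308. A second PTPRC probe set differed by 0.70 ± 0.38, and the remaining probe set, dim in 11 of 11 cows with signals from 3.54 to 4.69, by 0.11 ± 0.17 (-0.04 without mild 2 and severe 5), so the size depends on the probe set and is 0.63 over the mean of the 3. Among 8 measured kinases and partners of PTPRC, 6 were higher (all genes: 48.9%). At an unadjusted p under 0.05, 3 were higher and 0 lower (all genes: 8.45% and 7.46%). LYN, a Src-family kinase of B and myeloid cells, averaged 6.76 ± 0.29 in mild and 7.87 ± 0.62 in severe cows, a difference of 1.11 that was 0.60 over the mean of its 3 probe sets. The other receptor tyrosine phosphatases, which sit mostly in epithelium, vessels and stroma, were spread around 0, with 2 of 5 higher and a median of -0.01. PTPRE had the largest difference of these 5, 0.42 ± 0.17.

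CD53 is a tetraspanin, a membrane protein that organises receptors and integrins into clusters on leukocytes. It read 7.27, 6.92, 7.95, 7.03 and 7.57 in mild cows 1 to 5, and severe cows ran from 7.89 to 9.80 with a median of 9.24. Severe 1 and severe 3, at 7.89 and 7.90, fell just under mild 3, and the other 4 severe cows were at 9.21 or above. Group means of 7.35 ± 0.42 and 8.95 ± 0.85 gave a log2 difference of 1.61 ± 0.37, or 3.04-fold, at a limma adjusted p of 0.282. Of the 13 other tetraspanins measured, most of them expressed in many tissues, 8 were higher and 5 lower, with a median of 0.02. Of these, 2 were higher and 1 lower at an unadjusted p under 0.05 (all genes: 8.45% and 7.46%). CD9, found on epithelium and platelets, differed by 0.50 ± 0.15, TSPAN13 by 0.45 ± 0.18 and the lysosomal CD63 by -0.10 ± 0.08.

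CD69 is a C-type lectin put on the surface of freshly activated lymphocytes, where it pulls the egress receptor S1PR1 inside and so holds cells in the tissue. It was the dimmest of the 9, with 4.48, 3.99, 5.21, 4.14 and 4.46 in mild cows 1 to 5 and 4.82 to 6.80, median 5.83, in severe cows. All 5 mild cows and 2 severe cows were dim, where differences are compressed, so no fold is given. The means were 4.46 ± 0.47 and 5.84 ± 0.73, a log2 difference of 1.39 ± 0.34 at a limma adjusted p of 0.284, and severe 1 was the single severe cow inside the mild range. Of 10 other measured genes of lymphocyte activation, 9 were higher, with a median of 0.49. At an unadjusted p under 0.05, 4 were higher (all genes: 48.9% higher, 8.45% at that p). ICOS, a costimulatory receptor of activated T cells, averaged 5.48 ± 0.35 in mild and 6.82 ± 0.80 in severe cows, and EGR1, an immediate early transcription factor made in many cell types, 8.61 ± 0.31 and 9.47 ± 0.59.

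GPR171 is a G protein-coupled receptor for a neuropeptide and is found on T cells. Mild cows 1 to 5 read 4.96, 4.82, 5.50, 4.57 and 5.11, all dim, while severe cows ran from 5.31 to 8.09 with a median of 6.81 and 1 of them was dim. Severe 1 lay inside the mild range and the other 5 above it. The log2 difference was 1.69 ± 0.43 at a limma adjusted p of 0.285, from means of 4.99 ± 0.35 and 6.68 ± 1.02. Of its relatives in the same gene cluster 2 were measured, and they lay on opposite sides of 0. P2RY13, an ADP receptor of myeloid cells, differed by 0.75 ± 0.31, and P2RY14, a receptor for UDP-sugars found in the female reproductive tract, by -1.16 ± 0.49.

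Inside the cell, TYROBP (DAP12) is the small adaptor that carries the activating signal of receptors on myeloid and natural killer cells to the kinases SYK and ZAP70. Signals of 8.38, 7.57, 8.04, 7.88 and 8.56 in mild cows 1 to 5 stood beside 7.90 to 9.24, median 8.64, in severe cows. The groups overlapped most here, with 3 of 6 severe cows beyond the mild range and 4 of 6 above the mild mean. It had the smallest difference of the 9, 0.52 ± 0.28 log2 units or 1.44-fold (means 8.09 ± 0.39 and 8.61 ± 0.59, limma adjusted p = 0.456), and 0.27 without mild 2 and severe 5. All 5 measured receptors and kinases around TYROBP were higher, 2 at an unadjusted p under 0.05 (all genes: 48.9% higher, 8.45% at that p). TREM1, a receptor that signals through TYROBP on neutrophils and monocytes, averaged 4.46 ± 0.25 in mild cows, where it was dim in 5 of 5, and 5.73 ± 0.81 in severe cows. ZAP70, which serves the T cell receptor as well, averaged 6.29 ± 0.47 and 7.39 ± 0.57.

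SAMSN1 is a cytoplasmic adaptor with SH3 and SAM domains that restrains B cell activation. It had the largest difference of the 9 genes: 6.21, 5.58, 7.01, 5.64 and 7.12 in mild cows 1 to 5 against 6.68 to 9.47, median 8.27, in severe cows. Severe 3 was the single severe cow inside the mild range. Means of 6.31 ± 0.73 and 8.10 ± 0.97 gave 1.79 ± 0.47 log2 units or 3.46-fold, at a limma adjusted p of 0.285, and its other probe set gave 1.49 ± 0.46. SASH3, the related adaptor of lymphocytes, differed by 0.58 ± 0.20.

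CORO1A, coronin 1A, binds actin filaments and the ARP2/3 complex and is needed for migration and survival of T cells. Mild cows 1 to 5 lay close together at 7.71, 7.18, 7.83, 7.67 and 7.95, whereas severe cows spread from 7.22 to 10.20 with a median of 8.76. Severe 1 was near the lowest mild cow, severe 3 just above the highest, and severe 5 far above all. The means, 7.67 ± 0.29 and 8.72 ± 1.05, differed by 1.05 ± 0.43 log2 units or 2.08-fold (limma adjusted p = 0.356), and by 0.64 without mild 2 and severe 5. Of 14 actin regulators, 10 were higher and 4 lower, with a median of 0.09. Of these, 3 were higher and 1 lower at an unadjusted p under 0.05 (all genes: 8.45% and 7.46%). CAPG, which caps actin filaments in macrophages, differed by 0.51 ± 0.20 and ARPC1B, the ARP2/3 subunit of blood cells, by 0.38 ± 0.16. The 4 other coronins had a median of 0.10. CORO1B, the form found in most cells, differed by -0.01 ± 0.09, a value whose sign turned when any of 4 cows was left out (up to 0.02), and CORO7 by 0.29 ± 0.15.

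LAPTM5 is a membrane protein of leukocyte lysosomes that sends the T and B cell antigen receptors to breakdown. Its signal was high in every cow: 9.86, 9.05, 9.87, 9.42 and 10.28 in mild cows 1 to 5 and 9.73 to 11.14, median 10.70, in severe cows. Again severe 1 and severe 3 lay within the mild range and the other 4 above it. The means of 9.70 ± 0.47 and 10.52 ± 0.60 differed by 0.82 ± 0.30 log2 units or 1.77-fold (limma adjusted p = 0.322), and by 0.53 without mild 2 and severe 5. Of 7 partners in protein sorting and turnover 5 were higher, 2 at an unadjusted p under 0.05 (all genes: 48.9% higher, 8.45% at that p). CD247, the receptor chain that LAPTM5 acts on in T cells, differed by 0.73 ± 0.24 and the lysosomal membrane protein LAMP2 by 0.29 ± 0.11. The broadly expressed relatives LAPTM4A and LAPTM4B differed by 0.19 ± 0.12 and 0.18 ± 0.14, and by 0.09 each without mild 5 and without severe 4 respectively.

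The cows kept nearly the same order from gene to gene. Severe 5 had the highest signal in 9 of 9 genes, and mild 2 had the lowest in 7 and mild 4 in 2. In 8 of 9 genes, all but TYROBP, severe 2, severe 4, severe 5 and severe 6 lay above the other 7 cows.

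**Figure D2:**
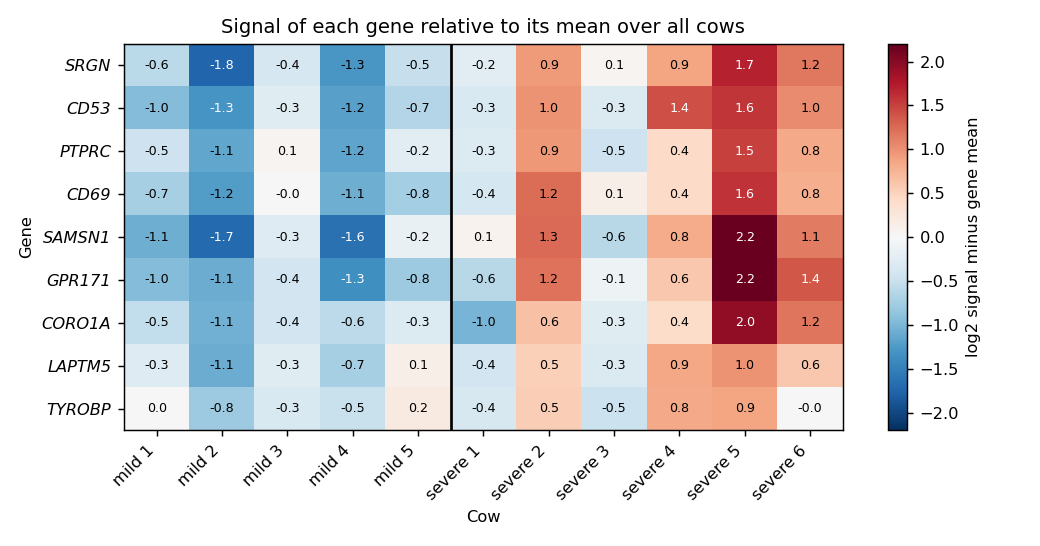
Signal of each gene (rows) in each cow (columns) minus that gene's mean over the 11 cows, in log2 units, with mild cows left of the line and severe cows right of it. Severe 5 is the highest column in all 9 rows, and no gene of severe 1 or severe 3 exceeds 0.13.

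Over the 36 pairs of the 9 genes, Pearson's r across 11 cows had a median of 0.933 (0.733 to 0.978) and Spearman's rho a median of 0.900 (0.673 to 0.982). Permutation p for r ran from 1e-05, the smallest that the permutations can give, to 0.0121, and from 7.2e-05 to 0.0121 after Benjamini-Hochberg adjustment over the 36 pairs; for rho the adjusted range was 0.00018 to 0.0278. These permutations shuffled cows across both groups, so their p takes in the known difference between severe and mild cows. The r on deviations from the group means, given below, was not tested. All genes of a cow come from 1 array, so its makeup and its RNA enter every pair, and the genes were picked as markers of the same cells. The level of the cows has a wide gap, described below, and 4 cows lie above it. Without the 2 cows farthest from the median, by the first gene of each pair, the median r was 0.879 (0.502 to 0.981). On deviations from the group means it was 0.871 (0.642 to 0.971). In the 6 severe cows alone it was 0.907 (0.692 to 0.999), and exact permutation gave an adjusted p under 0.05 in 28 of 36 pairs. Pairs of other genes were not counted in this way, so nothing particular to the 9 genes is read from that count. In the 7 cows below the gap, which span a narrower range, the median was 0.702 and single pairs ran from 0.0793 to 0.951.

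**Figure D3:**
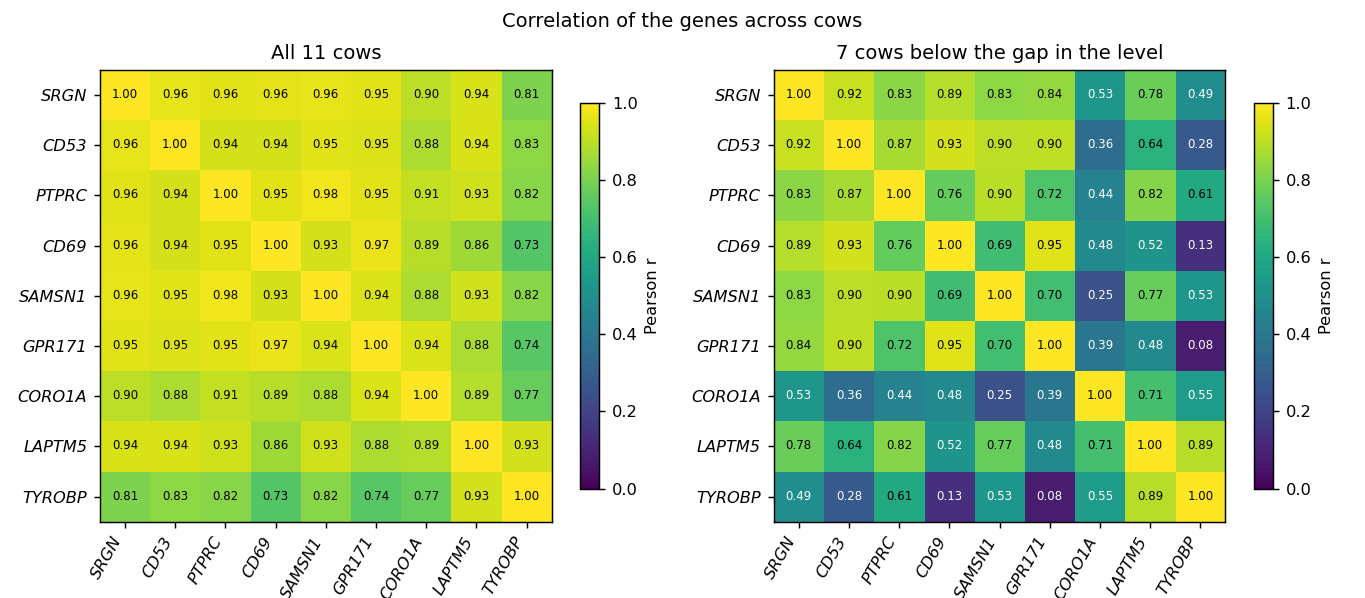
Pearson's r between the 9 genes over all 11 cows (left) and over the 7 cows below the gap in leukocyte level (right), both axes listing the genes. On the right TYROBP keeps a high r with LAPTM5 (0.894) and loses it with GPR171 (0.0793).

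TYROBP stood lowest among the 9, with a median r of 0.814 to the other 8, while SRGN had 0.955. Its lowest pair was with CD69 (r = 0.733, the lowest of all 36) and its highest with LAPTM5 (r = 0.932, and 0.894 in the 7 cows below the gap). PTPRC and SAMSN1 formed the closest pair (r = 0.978), followed by CD69 and GPR171 (r = 0.972, and 0.951 in the 7 cows). GPR171 and TYROBP had an r of 0.739 over all cows and 0.0793 in the 7 cows. Whether 1 pair differs from another was not tested.

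For each cow the 9 centred signals were averaged into a leukocyte level, in log2 units around 0. Mild cows 1 to 5 had levels of -0.62, -1.24, -0.26, -1.05 and -0.34, and severe cows 1 to 6 had -0.40, 0.92, -0.26, 0.74, 1.61 and 0.90. The widest gap, 0.99 of a range of 2.86, lay between -0.26 and 0.74, with all mild cows plus severe 1 and severe 3 below it and 4 severe cows above. Group means were -0.70 ± 0.43 (SD, n = 5) and 0.59 ± 0.77 (SD, n = 6), a difference of 1.29, for which no test is given because the members were selected on this contrast. The difference was 0.95 without mild 2 and severe 5, and 1.44 when SRGN, CD53 and PTPRC alone made up the level. A first principal component of the 9 genes held 93.6% of their variance over the cows. The 3' minus 5' signal of control transcripts, a measure of RNA quality, was 0.56 ± 0.07 in mild and 0.59 ± 0.14 in severe cows and had an r of 0.0828 with the level over 11 cows and -0.48 in the 7 below the gap.

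Other genes used across leukocytes ordered the cows much as the 9 did. The mean score of 27 other leukocyte-wide genes (of 41 listed) had an r of 0.980 and a rho of 0.927 with the level over the 11 cows, and 0.908 in the 7 below the gap; all points share their array. All 27 were higher in severe cows, 19 at an unadjusted p under 0.05 and 0 at an adjusted p under 0.05, with a median of 0.72, or 0.44 without mild 2 and severe 5. Over all genes 48.9% were higher and 8.45% were higher at that unadjusted p. IL2RG, the shared chain of interleukin receptors on lymphocytes, averaged 6.35 ± 0.46 in mild and 7.45 ± 0.78 in severe cows, and CYBA, a subunit of the phagocyte oxidase that other cells make too, 7.76 ± 0.25 and 8.21 ± 0.26.

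Among 7127 genes outside the 9 that were not dim on average, 8 had the highest r with the level over the 11 cows: STK17A (0.987), ARHGAP30 (0.979), TNIP1 (0.978), STAC and INPP5D (0.977 each), BTK (0.976), MYO1F (0.975) and NFKB1 (0.971). ARHGAP30 and INPP5D are also on the leukocyte-wide list. STK17A, a serine/threonine kinase, averaged 8.59 over all cows and differed by 0.74 ± 0.23 between the groups. BTK, the kinase of B cell receptor signalling, averaged 5.71 and differed by 1.04 ± 0.38, and it was dim in 6 of 11 cows, 4 of them mild. The average that decides what is dim includes the severe cows, so a gene can enter this ranking through its severe values. BTK did so, with means of 5.15 in mild and 6.19 in severe cows. On deviations from the group means the highest were BOLA-DRB3 (0.992), BOLA-DRA (0.987), STK17A (0.980) and BTK (0.977). BOLA-DRA and BOLA-DRB3 encode chains of the class II molecule that presents peptides to T cells. Class II genes have near-identical copies in cattle, so signals of their probe sets cannot be given to 1 gene with certainty.

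The level was set beside each leukocyte list. Over 11 cows its r was 0.936 with the score of T cell markers (14 genes), 0.919 with B and plasma cells (8), 0.887 with NK and cytotoxic cells (8), 0.873 with monocytes and macrophages (10) and 0.848 with neutrophils (9). In the 7 cows below the gap these were 0.915, 0.589, 0.726, 0.573 and 0.573. Mast cells (4 genes) had an r of 0.666, but 0.261 without severe 2 and severe 5 and -0.272 below the gap, and dendritic cells (3 genes) 0.282, -0.124 and 0.0239. High values were not limited to leukocytes: the endothelial score had an r of 0.424 over all cows and 0.837 below the gap, and stromal fibroblasts 0.424 and 0.562 (0.679 without the same 2 cows). Each list is read from the same arrays, and CD247, ZAP70 and TREM1 stand in a partner list too.

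**Figure D4:**
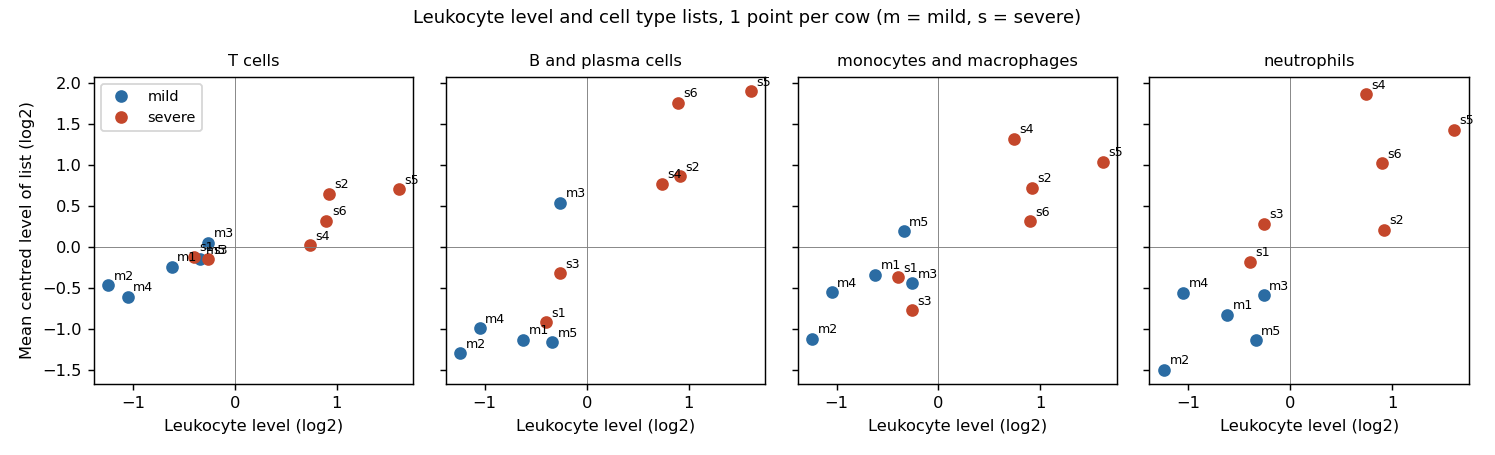
Mean centred signal of 4 cell type lists (log2, vertical axis) against the leukocyte level (log2, horizontal axis), 1 point per cow, m for mild and s for severe. T cell markers follow the level most evenly, mild 3 lies high for B and plasma cells (0.54), and neutrophil markers put all 6 severe cows above all 5 mild cows.

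The r of the 9 genes with the cell type scores varied from gene to gene, and differences between these values were not tested. Of 45 relations of a single gene with the T, B, NK, macrophage or neutrophil score (5 scores) over 11 cows, r was positive in every case. The same share was not computed for other genes. The permutation p below is taken over all cows and so takes in the known difference between the groups. On deviations from the group means r ran from 0.466 to 0.757 with neutrophils, 0.608 to 0.967 with monocytes and macrophages, 0.635 to 0.951 with T cells, 0.671 to 0.901 with NK and cytotoxic cells and 0.494 to 0.904 with B and plasma cells. PTPRC had its highest r with T cells (0.972, rho 0.964, adjusted p = 9e-05 by permutation, 0.975 in the 7 cows below the gap, 0.969 without the 2 farthest cows). TYROBP had its highest with monocytes and macrophages (0.973, rho 0.945, adjusted p = 9e-05 by permutation, 0.937 in the 7 cows, 0.948 without the 2 farthest), and its lowest with B and plasma cells (0.643, rho 0.591, adjusted p = 0.036 for r and 0.0621 for rho by permutation, -0.0778 in the 7 cows). LAPTM5 was highest with monocytes and macrophages too (0.955). CD69 was highest with T cells (0.956), and of the 9 genes it had the highest r with NK and cytotoxic cells (0.922). GPR171 led for B and plasma cells (0.938) and CD53 for neutrophils (0.913), where TYROBP was lowest (0.712, rho 0.518, adjusted p of rho = 0.108 by permutation).

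The rho of neutrophil markers with the level was 0.755, where the macrophage, T, NK and B cell lists had 0.764 to 0.955, mast cells 0.673 and dendritic cells 0.491. Their score was -0.83, -1.50, -0.59, -0.56 and -1.14 in mild cows 1 to 5 and -0.18, 0.21, 0.28, 1.86, 1.43 and 1.02 in severe cows 1 to 6. None of the 6 severe cows overlapped with the mild cows, severe 1 and severe 3 included, which by the level of the 9 genes lay among the mild cows. Of 9 measured neutrophil genes, 7 were higher, 6 at an unadjusted p under 0.05, and the same number, 6, had no overlap between the groups, against 8.45% and 0.754% of all genes. Their median was 1.71, and 3.04 over the 5 whose average over all cows was not dim. That average includes the severe cows, so a gene can pass through its severe values alone. CXCR1, the interleukin 8 receptor, did so, with means of 4.7 in mild, 7.37 in severe and 6.16 over all cows. The rise from 1.71 to 3.04 can therefore come in part from the filter. Signals of CXCR1 ran from 4.05 to 5.39 in mild cows, all dim, and from 6.13 to 8.57 in severe cows. S100A8, a calcium-binding protein that fills the neutrophil cytosol, ran from 6.48 to 9.56 and from 10.27 to 13.59.

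In the other leukocyte lists the scores of the groups overlapped, with at most 4 of 6 severe cows beyond the mild range. Monocyte and macrophage genes were higher in 10 of 10, 5 at an unadjusted p under 0.05 (median 0.80), T cell genes in 13 of 14, 8 at that level (median 0.62), NK and cytotoxic genes in 8 of 8, 3 at that level (median 0.26, and 0.82 over the 4 that were not dim), and B and plasma cell genes in 8 of 8, 6 at that level (median 1.57). Over all genes 48.9% were higher, 8.45% at that level. Without mild 2 and severe 5 the median was 0.49 for monocytes and macrophages. Mast cell genes were higher in 2 and lower in 2 of 4 (median -0.11), and of 3 dendritic cell genes 2 were higher and 1 lower (median 0.30, and -0.39 over the 2 that were not dim). Not dim again refers to the average over all cows, so this filter too can select on the contrast. CD1B, a dendritic cell gene, averaged 5.7 over all cows and was dim in 6 of 6 severe cows. C1QA and C1QB, chains of the complement protein that macrophages secrete, each differed by 1.20, with SE of 0.43 and 0.44. CD3G, of the T cell receptor complex, averaged 5.78 ± 0.69 and 7.02 ± 0.73, and NKG7, a granule membrane protein of cytotoxic cells, 6.05 ± 0.36 and 6.70 ± 0.44. JCHAIN, which joins secreted IgA and IgM, averaged 9.44 ± 1.26 and 11.24 ± 0.92. Limma called 0 genes of any list at an adjusted p under 0.05.

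Lists for the other cells of the wall showed no common direction. Epithelial genes were higher in 5 and lower in 8 of 13 (median -0.04), stromal fibroblast genes 5 and 5 of 10 (0.02), endothelial genes 5 and 4 of 9 (0.07) and smooth muscle genes 2 and 6 of 8 (-0.21). Severe 5, the cow with the highest leukocyte level, had the lowest epithelial score, -0.95, where the mild cows ran from -0.32 to 0.51. CLDN10, a claudin of uterine glands, averaged 10.97 ± 0.69 in mild and 9.97 ± 0.84 in severe cows, and PDGFRA, a growth factor receptor of stroma, 9.49 ± 0.36 and 10.45 ± 0.58. The r of the level with the epithelial score was -0.461, and 0.167 without severe 2 and severe 5. With the smooth muscle score it was -0.401, and -0.635 without the same 2 cows. Uterine identity genes were lower in 4 of 4 (median -0.43, and -0.48 over the 2 not dim on average), where 4680 of all 9155 genes were lower. HOXA10, which is also on the stromal list, averaged 9.77 ± 0.37 in mild and 9.06 ± 0.37 in severe cows. ESR1 averaged 5.14 ± 0.40 and 4.53 ± 0.37 and was dim in 10 of 11 cows. The uterine identity score had an r of -0.841 with the level (-0.797 without the same 2 cows). The part of these shifts in tissue makeup in the values of the 9 genes was not tested. With the epithelial score as a covariate the limma adjusted p of the 9 genes ran from 0.264 to 0.493, and without it from 0.269 to 0.456. That score differed by only -0.11 between the groups, so this fit cannot decide the question. The uterine identity score was not used as a covariate. Of 5 red blood cell genes measured, 0 were above the dim limit on average, and their scores were -0.06 to 0.26 in mild and -0.11 to 0.11 in severe cows.

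Finally the level was put into the fit of all genes as a covariate, for the genes that are not among the 9. Probe sets at an unadjusted p under 0.05 went from 3085 (1673 higher, 1412 lower) to 775 (349 and 426), and 0 passed an adjusted p of 0.05 in either fit. The level is itself higher in severe cows, so what it shares with the regime cannot be told apart from what it carries alone. The median of the 27 other leukocyte-wide genes went from 0.72 to -0.25, that of monocytes and macrophages from 0.80 to -0.25, T cells from 0.62 to -0.10, and B and plasma cells from 1.57 to -0.35. Neutrophil genes kept a positive median, 0.86 from 1.71. CXCR1 differed by 2.04 ± 0.65 with the covariate (2.67 ± 0.45 without) and S100A8 by 2.42 ± 0.96 (3.24 ± 0.66), at unadjusted limma p of 0.00916 and 0.028 and an adjusted p of 1.0 each; CXCR1 was dim in all mild cows, so neither of its differences is exact. IGHM, the immunoglobulin M heavy chain, went from 2.35 ± 0.87 to 0.20 ± 1.00. Epithelial genes, split before, were higher in 13 of 13 with the covariate, with a median of 0.26 and 0 at an unadjusted p under 0.05. Over all 9155 genes 4278 were higher and 4877 lower with the covariate.

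**Figure D5:**
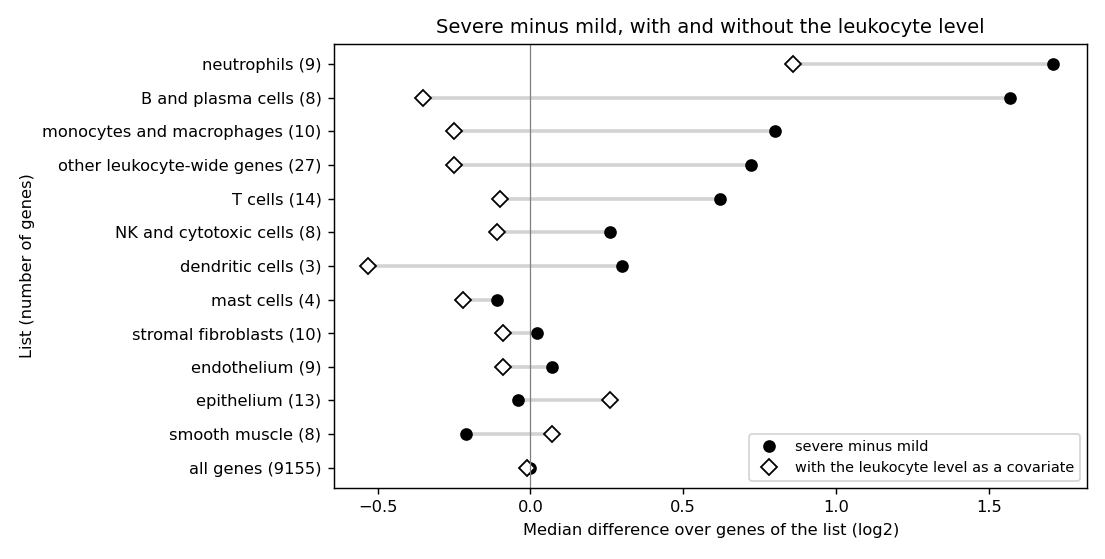
Median severe minus mild difference (log2, horizontal axis) of leukocyte lists, lists for other cells of the wall and all genes, number of genes in brackets, from the fit without covariate (filled circles) and with the leukocyte level as a covariate (open diamonds). Neutrophils stay right of 0 at 0.86 and mast cells start left of it (-0.11, then -0.22), while the other 6 leukocyte lists go from the right of 0 to its left.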

How the data were processed

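Endometrial RNA of 11 cows was measured, 1 array per cow, and each cow is a separate animal by the labels. The authors deposited log2 values made with RMA, per the submitters' processing notes, a method that corrects background, normalizes by quantiles and summarises probes. Its version is not given in the sources used here. The log2 scale was read from the values (2.63 to 14.6). Every array had a median of 6.20, and whether a shift followed RMA is not given in the sources used here, so a shift of all transcripts together is hidden. The number of arrays limits the precision. Correlations between arrays ran from 0.948 to 0.991.

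Of 24128 probe sets, 112 controls were left out. Of 24016 tested, 13292 had 1 symbol in the platform annotation, 86 several and 10638 none. Entrez numbers matched 13263 to a RefSeq gene table (assembly ARS-UCD2.0, used for names only) and 0 were renamed. Group differences and their standard errors come from limma 3.58.1 (R 4.3.3; lmFit, eBayes, two-sided). Its p-values were adjusted by Benjamini-Hochberg across the probe sets tested and read at 0.05. On simulated data over 24016 probe sets the fit called 42%, 86%, 98% and 100% of changes of 0.5, 1, 2 and 3 log2 units. Of 178 calls there, 15 were false. These rates hold for the simulated data only. In the measured data 0 of 24016 probe sets were called. SAMSN1, at 1.79 ± 0.47 (SE) log2 units, had a limma adjusted p of 0.285. The share of such differences that the fit can call among the leukocyte genes was not tested. A list's score is the mean over its genes of the signal minus the gene's mean over cows. Correlations used 100000 two-sided permutations, and exact enumeration in the 6 severe cows. Python 3.11.15 drew the figures.

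The members and lists were chosen with earlier results of these data known. Named are the 9 members, in each list the 2 genes with the smallest unadjusted p, relatives of the members, and the 8 and 4 genes most like the level. Alternatives were other eBayes settings, array weights, a second quantile normalization, a shift to a common median, a filter on dim probe sets (14410 kept), each cow left out, the epithelial score or the leukocyte level as a covariate, and other probe sets or members in the level. Leaving out mild 2 and severe 5, whose arrays differ most from the median array, and the correlations in the cows below the gap and with cell type scores were added after seeing the data. No batch or scan date entered a test. Sequences of the genes were not analysed here.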

Additional observations from a re-analysis of the deposited data

Results flagged for a closer look

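Dixon's test was run on the genes named and on the list scores, in 150 groups of 5 mild or 6 severe cows, and 5 held a cow far from the others. Chance marks about 1 group in 20. IGHM was at 12 log2 units (rounded) in mild 3, against 8.61 to 9.48 in the other mild cows, and the score of B and plasma cells, which holds IGHM, was 0.54 in the same cow against -1.30 to -0.99. LAPTM4A was lowest in severe 6 at 9.50, with the other severe cows at 9.68 to 9.76. The score of dendritic cells, of 3 measured genes, was 0.73 in severe 5 against -0.37 to -0.01. The score of red blood cells was 0.26 in mild 1 against -0.06 to 0.02. None of the 9 leukocyte genes had such a cow in either group.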

How the results depend on the processing

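The 9 genes kept their direction and their side of the threshold in 163 of 163 alternatives. The fit with the leukocyte level as a covariate is not among these, since that level is made of the same 9 genes. Beside it 5 of them were higher and 4 lower (PTPRC, CORO1A, LAPTM5 and TYROBP), where 4278 of all genes were higher and 4877 lower. The lowest adjusted p of the 9 genes (limma) was 0.0894 without severe 1 and 0.165 without severe 3. Their differences with each cow left out ran from 1.43 to 1.84 for SRGN and from 0.39 to 0.66 for TYROBP. The leukocyte level differed by 1.08 to 1.48 with each cow left out and by 1.23 to 1.38 with each member left out. The median pair correlation ran from 0.908 to 0.941 with each cow left out and was 0.702 in the cows below the gap. Over all probe sets the count at an adjusted p under 0.05 ran from 0 to 16 with each cow left out. It was 16 without severe 1, where CXCR1 passed at an adjusted p of 0.0466, and 2 without severe 3.

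With the leukocyte level as a covariate the median of the other leukocyte-wide genes was -0.25, and 23 named genes had the opposite sign. STK17A, ARHGAP30, STAC, INPP5D, BTK, MYO1F, BOLA-DRB3 and BOLA-DRA were named for following the level, so a smaller difference beside it was fixed by that choice, though a change of sign was not. The values were IL2RG -0.13, C1QA -0.13, C1QB -0.20, CD3G -0.04, NKG7 -0.10, CD247 -0.10, CAPG -0.06, ARPC1B -0.14, CORO7 -0.18, PTPRE -0.01, SASH3 -0.12, P2RY13 -0.03, P2RY14 0.21, BGN -0.18, STK17A -0.10, ARHGAP30 -0.16, STAC -0.14, INPP5D -0.20, BTK -0.33, MYO1F -0.21, BOLA-DRB3 -0.57, BOLA-DRA -0.43 and CLDN10 0.33, and the cause was not tested. BOLA-DRB3 at -0.57 ± 0.10 and BOLA-DRA at -0.43 ± 0.11 had unadjusted limma p of 0.000214 and 0.00309. These 2 were picked for a high r on deviations from the group means, which makes the SE beside the level small. Nothing is therefore read from their p, and 0 probe sets passed an adjusted p of 0.05 in that fit. The difference of CORO1B ran from -0.07 to 0.02 with each cow left out, at 0.01 without mild 4, without mild 5 or without severe 6 and 0.02 without severe 1.

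Some differences moved by over 1.5 times. Over the mean of all probe sets NKG7 was 0.32 (0.64 for the main one), EGR1 0.47 (0.87), TPSB2 -0.24 (-0.39), LAMP2 0.18 (0.29), TNIP1 0.50 (0.88), INPP5D 0.33 (0.70) and PDGFRA 0.42 (0.97). Without mild 2 and severe 5 NKG7 was 0.41, ARPC1B 0.21, CORO7 0.17, SASH3 0.32, BTK 0.67, MYO1F 0.48, BOLA-DRB3 0.39, BOLA-DRA 0.46 and CLDN10 -0.55. JCHAIN was 1.18 with array weights, CD63 -0.20 after a second quantile normalization and -0.06 without mild 1, DCN 0.25 without mild 1 and LAPTM4B 0.11 without mild 4.

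No paired analysis was possible because the labels give the cows no replicate numbers that the groups share. CD69 and GPR171 lie near the floor in mild cows, where differences are compressed. With 5 and 6 cows, a p over the threshold does not show that values did not differ.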
